A study of Mus musculus with 42 samples.

Results

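The translation initiation and elongation factor genes are the protein-coding genes of the mouse whose symbols begin with Eif or Eef and a digit. The rule used names and gene class only, and no measured value. It found 68 of the 50765 genes in the brain table and 66 of the 27409 genes in the testes table, with Eef1a2 and Eef1akmt3 in the brain table alone. They fell into 11 role groups, of which the subunits of eIF3 (14 genes) and the cap-binding complex eIF4F with its helpers (12 genes) were the largest.

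Initiation factors bring the small ribosomal subunit, the initiator tRNA and the capped 5′ end of an mRNA together and choose the start codon. Elongation factors then deliver each aminoacyl-tRNA and move the ribosome along the message. The cap complex eIF4F reads the very end of the mRNA, where PCIF1 methylates an adenosine at the first transcribed position to make m6Am, and several factor mRNAs begin with a pyrimidine tract that places their own translation under mTOR control.

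Values came from adult mice with a Cas9-made deletion of 89 bp across exon 15 and intron 16 of Pcif1, which takes out catalytic residues of the methyltransferase and leaves a premature stop, per the labels' protocols. The testes libraries compared Pcif1 knockout (KO) with heterozygous (HET) males, and m6Am-Exo-Seq gave IP libraries, in which an antibody that binds m6A and m6Am pulled down capped 5′ ends, and input libraries. The brain libraries compared KO with wild-type (WT) mice, and gave ribosome footprints and input RNA of the same lysates. Each of the 8 groups held 3 libraries, and the other 18 of 42 listed samples were not analysed here. HET testes, the control in that tissue, still carried 1 deleted allele. The mutant line came from B6D2F1/J hybrid embryos, a cross of C57BL/6J and DBA/2J, whose founders were crossed to C57BL/6J, and whether the compared mice were littermates is not given in the sources used here. The labels call the samples biological triplicates, so p-values measure the spread between 3 libraries a group.

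Testes libraries held 1816831 to 6574479 reads in IP and 4151226 to 4971554 in input. Brain libraries held an estimated 13613498 to 16559686 reads in footprints and 5528738 to 17443749 in input, with KO input replicate 2 the shallowest. Protein-coding genes took 22.4 to 29.96% of footprint signal and 41.1 to 43.9% of brain input signal. Pcif1 itself had a signal of 1.64 to 7.98 in KO testes inputs against 5.53 to 10.4 in HET inputs, and of 201 to 259 in KO brain inputs against 253 to 388 in WT inputs. In brain footprints it had 354, 302 and 182 in KO against 242, 229 and 233 in WT, and in testes IP 8.98, 0 and 6.31 in KO against 1.49, 5.88 and 8.04 in HET, with overlap in both. The deletion covers a small piece of the gene, so a total over the gene checks nothing about the labels. All 8 neuronal markers were detected in brain and all 9 spermatocyte markers in testes, while the protamine gene Prm1 was at or near 0 in testes. Values below are signals, read totals per gene after the authors' scaling of each library, and they are compared within a gene, not between genes of different length.

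The annotated starts of factor genes are shown first, because PCIF1 methylates an adenosine at the first transcribed position. The antibody binds m6A as well as m6Am, so the IP signal does not report the first base alone. RefSeq promoters (build GRCm38.p6) matched 52 of the 68 genes, counting several starts of a gene together. An A stood at an annotated first base in 12 genes (23.1%), against 39.2% of the 27025 RefSeq genes in the same table. A pyrimidine tract, here a C followed by at least 4 more C or T, lay within 30 bases of a start in 30 genes (57.7%), against 62.7% of all genes. The letters CCGGAAGT, searched on both strands, were in the 300-base promoter of 9 genes (17.3%: Eef1b2, Eif2ak1, Eif2b2, Eif2b4, Eif3d, Eif3l, Eif4e2, Eif5a and Eif5a2), against 4.31% of all genes. The windows below belong to the 7 matched genes whose antibody enrichment in testes differed between genotypes, and to Eef1a1, the gene with the deepest depletion from the HET IP. Each has 60 bases, 30 before the annotated first base and 30 from it, read 5′ to 3′ on the gene's strand, and capitals mark the pyrimidine tract nearest the start.
Eif4a3, chr11:119300014-119300073, minus strand: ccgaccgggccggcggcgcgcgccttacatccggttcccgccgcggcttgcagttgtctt
Eif2s2, chr2:154892877-154892936, minus strand: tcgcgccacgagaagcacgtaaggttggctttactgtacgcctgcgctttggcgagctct
Eif4a1, chr11:69672394-69672453, minus strand: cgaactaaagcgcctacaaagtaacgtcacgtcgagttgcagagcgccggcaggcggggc
Eif3b, chr5:140419275-140419334, plus strand: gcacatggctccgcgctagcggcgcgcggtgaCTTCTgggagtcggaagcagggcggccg
Eif4g1, chr16:20672697-20672756, plus strand: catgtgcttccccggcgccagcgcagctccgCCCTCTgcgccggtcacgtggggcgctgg
Eef2, chr10:81176601-81176660, plus strand: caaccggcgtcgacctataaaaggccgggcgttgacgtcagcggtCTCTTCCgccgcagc
Eef1akmt4, chr16:20611571-20611630, plus strand: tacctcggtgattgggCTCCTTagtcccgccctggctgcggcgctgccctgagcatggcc
Eef1a1, chr9:78481695-78481754, minus strand: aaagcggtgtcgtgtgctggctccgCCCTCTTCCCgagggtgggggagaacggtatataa
None of the 7 genes with a genotype difference had A as the annotated first base, and 4 of the 7 had a tract in the window. The start in use can lie away from the annotated one: the Eef1a1 window ends in a TATA-like run downstream of its annotated start, and the Eef2 tract begins at base 16 of the transcript. A match or its absence describes these letters only.

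Antibody enrichment of factor mRNAs in testes shifted both ways in the knockout. Enrichment is log2 of IP over input on the log2(signal + 1) scale, and the genotype difference is enrichment in KO minus that in HET, tested with limma as an interaction over 12 libraries and adjusted over 12387 genes. Of 61 factor genes tested, 6 had higher and 3 lower enrichment in KO at an adjusted p below 0.05, together 14.8%, against 9.97% of all genes tested (3.72% higher, 6.25% lower). The median difference was 0.02 over factor genes and -0.01 over all genes. The 3 with lower enrichment were the RNA helicases Eif4a1 and Eif4a3 and the eIF2 beta subunit Eif2s2. The 6 with higher enrichment were the scaffold Eif4g1, the eIF3 core subunit Eif3b, the ribosome anti-association factor Eif6, the exchange factor Eef1d, the translocase Eef2 and the methyltransferase Eef1akmt4.

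Among the helicases, Eif4a3, which marks exon junctions after splicing, had signals of 49.4, 57.3 and 63.1 in KO IP libraries and of 103, 131 and 131 in HET IP libraries. Its inputs were 238, 241 and 223 in KO and 194, 232 and 174 in HET. Every KO IP library lay below every HET IP library, and the inputs overlapped. The difference in enrichment was -1.32 ± 0.25 (SE, limma adjusted p = 0.00494), and it passed in all 20 alternative settings and leave-one-out fits run. Eif4a1, the helicase of eIF4F that unwinds 5′ ends, had 649.6, 603 and 589 in KO IP and 1278, 739 and 1186 in HET IP. Its inputs were 948, 805 and 817 in KO and 772, 731 and 891 in HET. The IP groups did not overlap, though HET IP replicate 2 lay well below the other two, and the inputs overlapped. Its difference was -0.86 ± 0.25 (adjusted p = 0.0367), and among the 12 leave-one-out fits it passed only without HET IP replicate 2 or KO IP replicate 1, with values of -1.11 to -0.71 over the 12 fits. Its close paralog Eif4a2 differed by -0.29 (adjusted p = 0.359).

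Eif2s2 codes for the beta subunit of eIF2, the GTPase complex that carries the initiator tRNA. It had 924, 984 and 1242 in KO IP libraries and 1889, 2418 and 2039 in HET IP libraries. Inputs were 3343, 3499 and 3226 in KO and 3273, 3413 and 3472 in HET, so the IP groups stood apart while the inputs overlapped. The difference was -1.001 ± 0.18 (adjusted p = 0.00434) and passed in all 20 alternatives. The other subunits did not pass: the alpha subunit Eif2s1 differed by 0.07 (adjusted p = 0.823), and the Y-linked gamma subunit Eif2s3y by -2.08 (adjusted p = 0.0572). Eif2s3y rested on 3, 6 and 6 recovered reads in KO IP libraries against 12, 122 and 58 in HET IP libraries, and its X-linked copy Eif2s3x was below the signal minimum. Eif2s2 and Eif6 lie on chromosome 2, as does Pcif1, and their differences had opposite signs. Eif2ak4, Eif3m and Eif3j1 lie on that chromosome as well and did not pass. The part of chromosome position was not tested.

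Eif6 keeps free large ribosomal subunits from joining small ones. It had 1277, 1310.3 and 1260.5 in KO IP libraries and 671, 593 and 678 in HET IP libraries. Inputs were 515, 471 and 454 in KO and 410.3, 405 and 411 in HET. Both pairs of groups were apart, with the wider gap in the IP, and the difference in enrichment was 0.76 ± 0.17 (adjusted p = 0.0109). Eif3b, a scaffold of the eIF3 core, had 362, 322 and 280.2 in KO IP and 163, 172 and 118 in HET IP. Its inputs, 409, 347 and 349 in KO and 384, 350.1 and 375 in HET, overlapped. The difference was 1.10 ± 0.23 (adjusted p = 0.00926), the only one of the 14 eIF3 genes to pass, with the rest between -1.21 and 0.65.

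Eef1d, part of the complex that reloads eEF1A with GTP, had 7129, 5539 and 5177 in KO IP libraries and 4134, 3410.3 and 3051 in HET IP libraries. Inputs were 2297, 1999 and 1938 in KO and 2287, 2143 and 2362 in HET. It was enriched in both genotypes, more in KO, and differed by 0.88 ± 0.20 (adjusted p = 0.0139). Eef2, which moves the ribosome by 1 codon, had 1643, 978 and 1129 in KO IP and 755, 694 and 581 in HET IP. Its inputs were 1767, 1483 and 1451 in KO and 1789.8, 1557 and 1662 in HET, so KO IP libraries came near their inputs while HET IP libraries stayed well under theirs. The difference was 0.95 ± 0.24 (adjusted p = 0.0218), and 5 of 12 leave-one-out fits lost the call: without HET IP replicate 3, HET input replicate 1 or 3, or KO input replicate 2 or 3, with values of 0.74 to 1.11 over the 12 fits.

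The last pair were weaker calls. Eif4g1, the large scaffold that joins the cap-binding protein to eIF3, had 522, 654 and 570.3 in KO IP libraries and 340.1, 269 and 324 in HET IP libraries, with inputs of 526, 505 and 549.8 in KO and 443, 446 and 433 in HET. Its difference of 0.65 ± 0.19 (adjusted p = 0.0434) passed only without HET IP replicate 1 or KO IP replicate 1 among the 12 leave-one-out fits, with values of 0.55 to 0.72. Eef1akmt4, a lysine methyltransferase of eEF1A, rested on 21, 12 and 22 recovered reads in KO IP and 4, 10 and 8 in HET IP. Its HET IP signals, 5.97 to 7.15, were all under the signal minimum of 10, so it entered the test through its other libraries, where it was higher. Its difference of 1.68 ± 0.47 (adjusted p = 0.0331) was lost in 7 of 12 leave-one-out fits, each without 1 of the 6 inputs or KO IP replicate 1, with values of 1.44 to 1.85. The cap-binding protein Eif4e itself differed by 0.05 (adjusted p = 0.926).

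**Figure D1:**
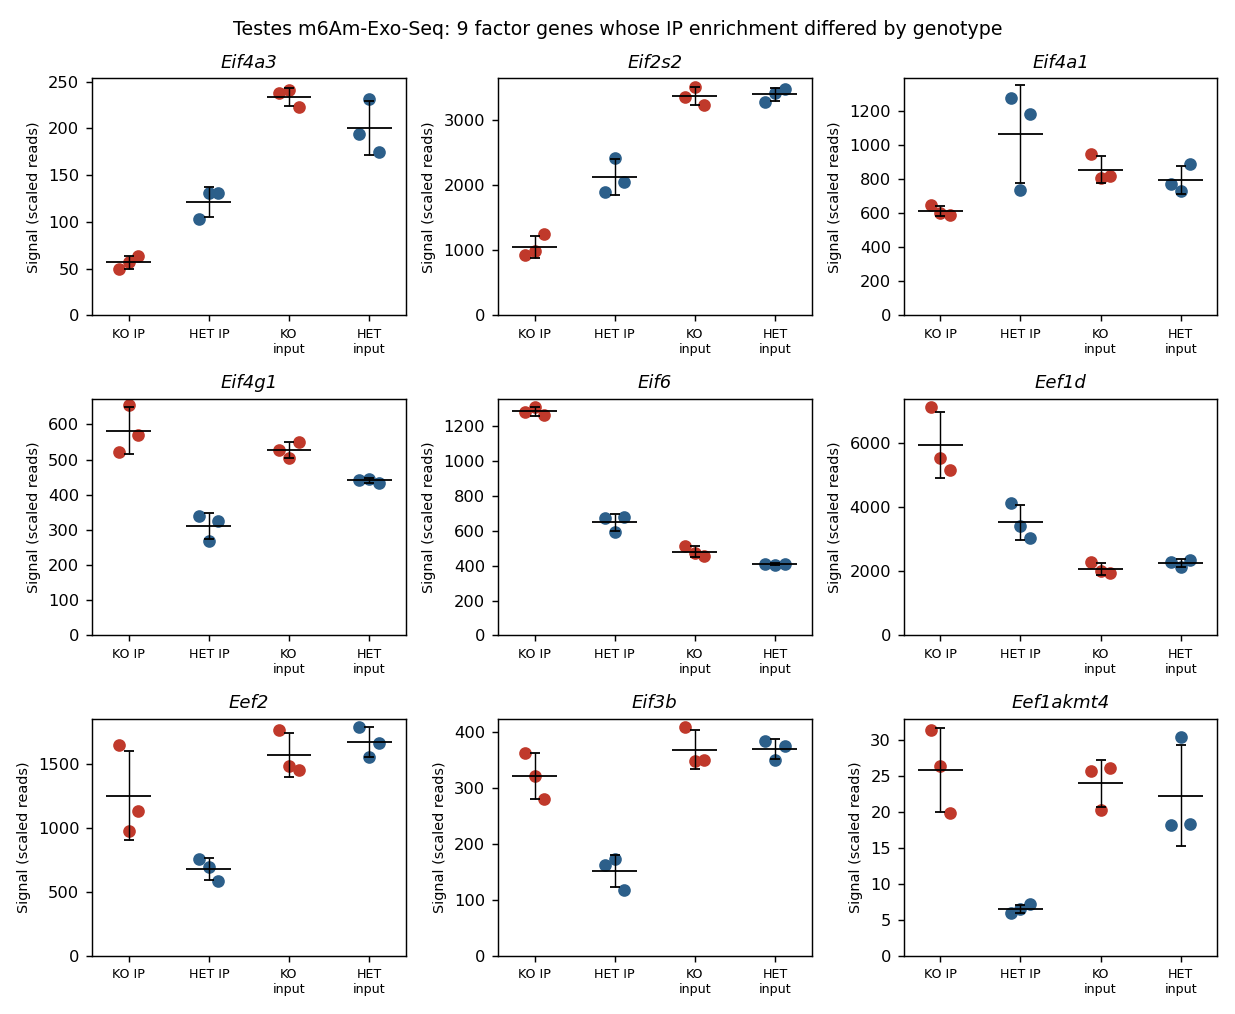
Signal of the 9 factor genes whose IP enrichment differed between genotypes, by library, in KO IP, HET IP, KO input and HET input of testes. Points are libraries, horizontal bars are means and error bars are SD over 3 libraries. Eif4a3, Eif2s2 and Eif4a1 sit lower in KO IP than in HET IP, at 49.4 to 63.1 against 103 to 131 for Eif4a3, while the other 6 sit higher in KO IP.

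All 6 higher calls depended on the scaling. With libraries scaled by their upper quartile, the median difference of all genes moved to -0.20, and 3 factor genes passed, 0 higher and 3 lower, against 6 and 3. Over all genes that scaling called 678 of 12444, against 1235 of 12387 on the deposited scaling. DESeq2 called 14 factor genes and edgeR 13 on reads recovered from the signal, with 1708 and 1444 called of all 12387 genes. The authors' deposited table lists 14 of 59 factor genes with an adjusted p below 0.05, against 16.0% of its 10929 genes: the same 9 and Eif1, Eif2b4, Eif2b5, Eif2s3y and Eif4g2. Without HET IP replicate 1, limma called 16 factor genes, and 1729 of all 12228 genes. Summed signals of 10 round spermatid markers ran from 10903 to 14343 in KO IP against 17948 to 19442 in HET IP. Those of 10 elongating spermatid markers ran from 33689 to 35711 in KO IP against 43081 to 66239 in HET IP, and those of 8 spermatogonial markers from 259 to 319 against 242 to 257. Spermatocyte marker sums ran from 3402 to 3600 in KO IP against 4353 to 4638 in HET IP, and Sertoli marker sums from 760 to 922 against 573 to 692. Leydig marker sums overlapped. The part of these markers in the differences was not tested. They are sums of IP signal from whole testes, so a change in pull-down, fewer cells of a type and less RNA per cell cannot be told apart.

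Factor mRNAs were found both enriched and depleted in the IP of either genotype. In KO testes 12 of 61 had a higher IP than input signal and 18 a lower one, 49.2% in all against 45.5% of all genes (21.2% higher, 24.3% lower). In HET testes 10 were higher and 17 lower, 44.3% in all against 30.1% of all genes (14.7% higher, 15.4% lower). Upper-quartile scaling gave 8 higher and 19 lower in KO, and 5 and 14 in HET. The KO split rested on single libraries: it was 12 higher and 11 lower without KO input replicate 2, 11 and 10 without KO input replicate 3, and 14 and 15 with DESeq2. The split was not tested against that of all genes. Eef1a1, which codes for the main carrier of aminoacyl-tRNA and is a classic mRNA with a 5′ pyrimidine tract, was the most depleted in HET. It had 1157, 1011 and 924 in KO IP libraries against 4397, 4719.6 and 5198 in KO inputs, and 769.7, 905 and 738 in HET IP against 4924, 4327 and 4762 in HET inputs. IP and input were far apart in both genotypes, at a log2 of -2.21 ± 0.13 in KO (adjusted p = 1.31e-08) and -2.54 ± 0.13 in HET (adjusted p = 5.56e-09), and the genotype difference of 0.33 did not pass (adjusted p = 0.255).

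By role, start-codon factors split. Eif1, which guards start codon selection, was enriched at 1.43 in KO (adjusted p = 1.48e-05) and at 0.64 in HET (adjusted p = 0.0152), and no other of the 7 tested was enriched in either. Of the 3 tested eIF2 subunits, Eif2s2 (-1.69) and Eif2s3y (-1.82) were depleted in KO, and in HET Eif2s2 (-0.69) passed. Eif2a, which codes for the separate factor eIF2A, was depleted in KO (-0.79), and 8 of 12 leave-one-out fits lost that call. In eIF2B, the exchange factor that recharges eIF2, the enriched members were Eif2b2 (0.81 in KO, 0.61 in HET), Eif2b3 (0.85 in KO, 0.76 in HET) and, in KO, Eif2b4 (0.61). Eif2b1 was depleted in KO (-0.96) and Eif2b5 in HET (-1.10). Of the eIF2 alpha kinases, which shut down initiation under stress, the double-stranded RNA sensor Eif2ak2 (1.07) and the heme sensor Eif2ak1 (0.47) were enriched in KO, and 0 of 4 passed in HET.

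In eIF3, the ring that receives mRNA and the initiator complex, 1 gene was enriched and 7 depleted in KO, and 1 enriched and 3 depleted in HET, of 14. Eif3k was the enriched one, at 0.57 in KO and 0.74 in HET. Eif3h was depleted in both, at -1.35 in KO and -1.99 in HET, as was Eif3m, at -0.76 in KO and -1.35 in HET. Depleted in KO were also Eif3l (-1.57), Eif3e (-1.30) and Eif3a (-1.02), and in HET Eif3b (-1.30). In the role group of eIF4F with its helpers and homologs, 1 gene was enriched and 5 depleted in KO, against 2 and 6 in HET, of 11.

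The cap-binding homologs Eif4e3 (-2.01 in KO, -1.70 in HET) and Eif4e2 (-0.82 in KO, -1.10 in HET) and the helicase Eif4a2 (-1.29 in KO, -0.99 in HET) were depleted in both genotypes. Eif4e3 had 1.80 to 6.61 in KO IP libraries and 3.57 to 5.22 in HET IP libraries, all under the signal minimum of 10, so it entered the test through its inputs alone, where it was higher, and its depletion is no independent result. Eif4a3 was depleted in both as well, at -2.03 in KO and -0.71 in HET. Eif4g2, a scaffold that lacks the cap-binding protein's docking site, was enriched at 0.96 in KO and 0.37 in HET, and the helicase cofactor Eif4b at 0.56 in HET. The HET call of Eif4g2 was lost in 7 of 12 leave-one-out fits. The eIF4E inhibitor Eif4ebp1 was enriched in KO (1.22, adjusted p = 0.00665) and had 0.74 in HET (adjusted p = 0.101).

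In the remaining role groups the hypusinated factor Eif5a was enriched in both genotypes, at 0.80 in KO and 0.57 in HET. So were the anti-association factor Eif6 (1.42 in KO, 0.66 in HET) and Eef1d (1.51 in KO, 0.63 in HET). Eef1e1, which sits in the multi-synthetase complex, was enriched in HET (0.65). Eef2 (-1.31), its inhibitory kinase Eef2k (-1.21) and Eef1akmt4 (-1.59) were depleted in HET. In KO Eef2 had -0.36 and Eef2k 0.16, neither past the test. Eef2k had 4.57 to 9.83 in HET IP libraries and Eef1akmt4 5.97 to 7.15, all under the signal minimum of 10. Both entered the test through their other libraries, where they were higher, so their HET depletion is no independent result. The eEF2 methyltransferase Eef2kmt was depleted in KO (-2.98 ± 1.02, adjusted p = 0.0260), with 46.4, 0 and 70.3 in KO IP libraries against 78.0, 170.2 and 121 in KO inputs. KO IP replicate 2, the shallowest library, held the 0, and the call was lost without KO input replicate 2 or 3 and with DESeq2. Leaving out 1 library at a time also ended the KO calls of Eif2a, Eif2ak1, Eif2b1, Eif3a, Eif3c, Eif3j1, Eif3m and Eif4a1 in at least 1 fit, and the HET calls of Eef1e1, Eef2k, Eif1, Eif2b3, Eif4b, Eif4enif1, Eif4g2, Eif4g3 and Eif5.

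**Figure D2:**
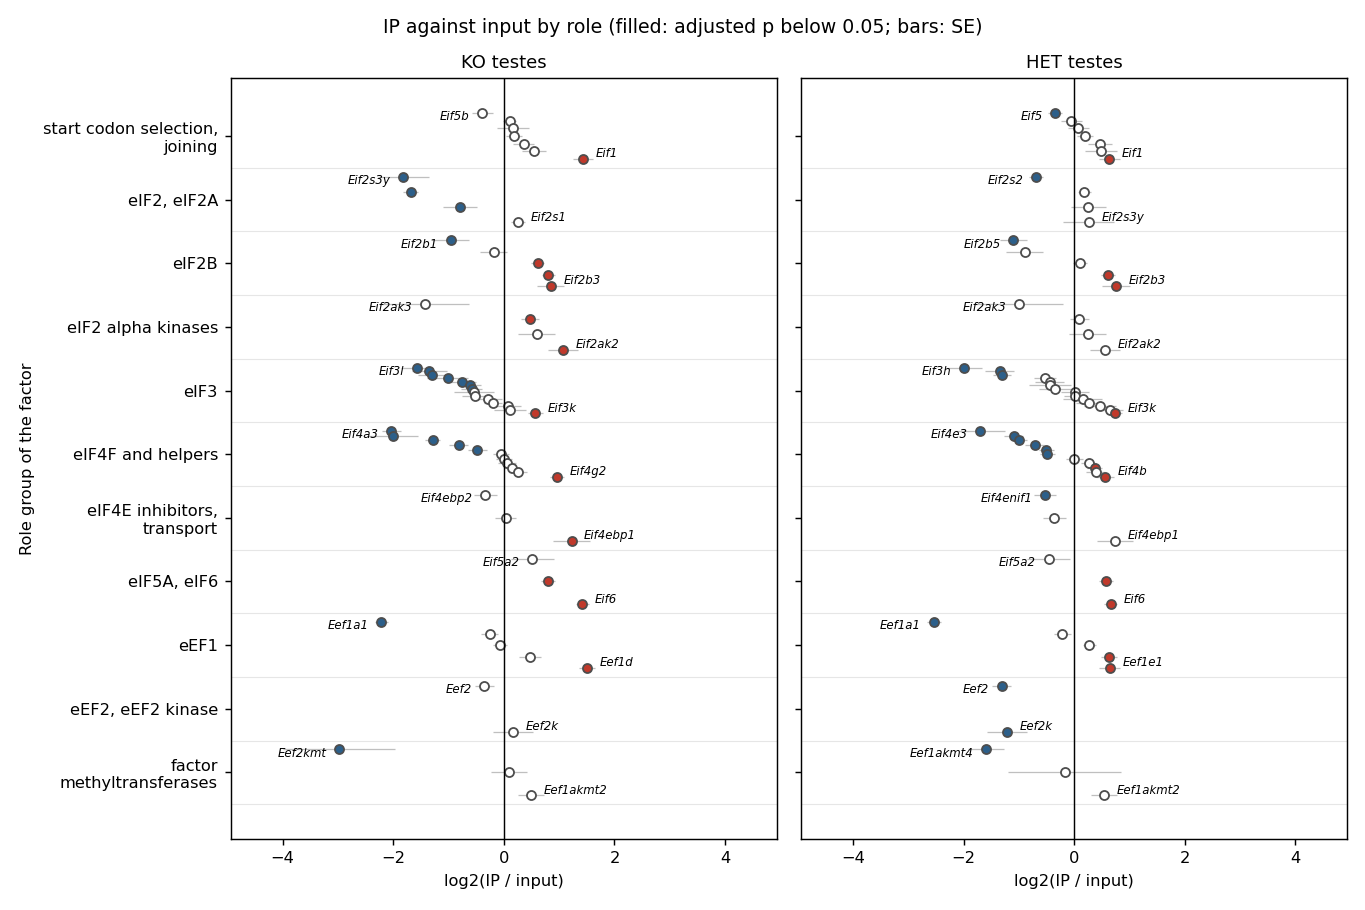
Log2 of IP over input for each of the 61 tested factor genes, by role group, in KO testes (left) and HET testes (right). Points are limma estimates, bars are SE, and filled points passed an adjusted p below 0.05 (red higher, blue lower in the IP). Eef1a1 stands far left in both panels, at -2.21 in KO and -2.54 in HET, and eIF3 genes lie mostly left of 0 in KO.

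Few factor mRNAs changed in testes input. Of 60 factor genes tested between KO and HET inputs, Eif5a rose and Eef1g fell, 3.33%, against 9.33% of all 11278 genes tested (3.32% higher, 6.01% lower). At an unadjusted p below 0.05, 6 were higher and 8 lower. The share of all genes below that unadjusted threshold was not computed, so these counts have no background to be read against. Scaling by library total gave 4 calls higher and 1 lower, with 1043 called of all 11406 genes. Factor genes together took 1.30 to 1.32% of the protein-coding signal in KO inputs against 1.249 to 1.274% in HET inputs.

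Eif5a, which codes for a hypusine-bearing factor that relieves ribosome stalling, had 1611, 1763 and 1623 in KO inputs against 1117, 1184 and 1266 in HET inputs. The groups were well apart, at a log2 of 0.49 ± 0.08 (adjusted p = 0.00334), and the call held without any 1 library. Its paralog Eif5a2 had 17.7, 7.50 and 8.18 in KO against 26.1, 21.2 and 19.1 in HET, lower in all 3 libraries without passing (-1.02, adjusted p = 0.0778). Eef1g, the scaffold subunit of the eEF1B exchange complex, had 1058, 1075 and 1029 in KO against 1269, 1328 and 1388 in HET. It did not overlap either, at -0.33 ± 0.08 (adjusted p = 0.0167), but the call was lost without HET input replicate 2 or 3 or KO input replicate 3. Both calls were lost with limma without a trend (adjusted p of 0.0867 for Eif5a and 0.134 for Eef1g) and with the spread taken over all 12 libraries (adjusted p of 0.189 and 0.462). Over the same inputs the summed round spermatid markers ran from 6616 to 7352 in KO against 8088 to 8999 in HET, and spermatogonial markers from 255.7 to 259.6 in KO against 188 to 194 in HET. Elongating spermatid sums ran from 35122 to 36140 in KO against 39784 to 42671 in HET, and spermatocyte sums from 3773 to 4129 against 4150.5 to 4407. Sertoli and Leydig sums overlapped. Odf1, 1 of the 10 elongating spermatid markers, was at 0 in all KO inputs. The part of cell makeup in these changes was not tested.

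**Figure D3:**
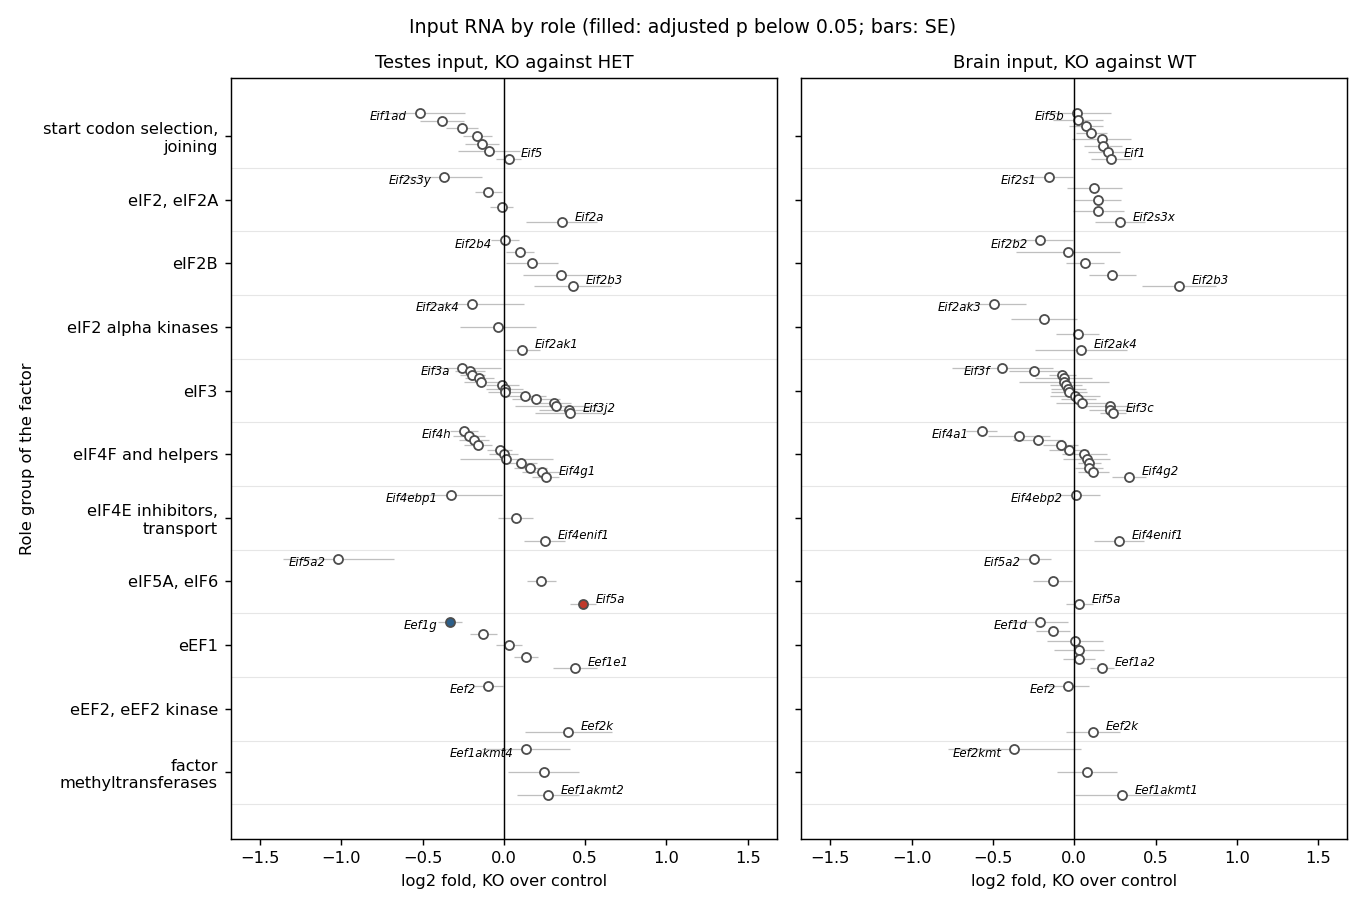
Log2 fold of input RNA in KO over its control for each tested factor gene, by role group, in testes (left, against HET) and brain (right, against WT). Points are limma estimates with SE bars, filled where the adjusted p was below 0.05. Eif5a at 0.49 and Eef1g at -0.33 in testes are the only filled points, and most genes lie within 0.5 of 0.

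In brain input no factor gene passed. Limma called 0 of 63 between KO and WT, against 0.255% of 15298 genes (0.176% higher, 0.0784% lower). An unadjusted p below 0.05 was seen for 5: Eif2b3, Eif3c and Eif4g2 higher, and Eif2ak3 and Eif4a1 lower. The share of all genes at the unadjusted threshold was not computed. Eif4a1 came closest, with 545, 476 and 518 in KO inputs against 818, 749 and 716 in WT inputs. The groups did not overlap, and the log2 fold was -0.57 ± 0.10 (adjusted p = 0.116). A pseudogene, Eif4a-ps4, had 214.6 to 598 in KO inputs and 593 to 701 in WT inputs, so reads that both sequences share would make the Eif4a1 value uncertain. In testes inputs Eif4a1 differed by 0.10 (adjusted p = 0.532).

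Neither gene of the eEF1A pair passed in brain input. Eef1a1 had 10147, 7988 and 8975 in KO inputs against 9414, 9729.7 and 10410.3 in WT inputs, and its neuronal and muscle paralog Eef1a2 had 3684, 4088 and 3918 in KO against 3403, 3581 and 3391 in WT. Eef1a1 overlapped between genotypes and Eef1a2 did not, with log2 folds of -0.13 (adjusted p = 0.669) and 0.17 (adjusted p = 0.480). Eif2ak3, the kinase PERK that answers unfolded protein in the endoplasmic reticulum, had 200.3, 153 and 148 in KO inputs against 291, 226 and 194 in WT inputs, at -0.49 ± 0.19 (adjusted p = 0.442). Summed oligodendrocyte markers were higher in KO, at 28804 to 30859 in KO inputs against 19441 to 20610 in WT inputs, and 58658 to 65566 in KO footprints against 33379 to 48871 in WT footprints. Summed microglia markers were lower in KO, at 684 to 761 in KO inputs against 871 to 958 in WT inputs, and 1176 to 1215 in KO footprints against 1466 to 2162 in WT footprints. The part of either list in these values was not tested.

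Footprints of factor mRNAs in brain did not pass between genotypes, and the number of calls depended on whether 1 library was kept. Limma called 0 of 63 in footprints (0.223% of 14377 genes, 0.146% higher and 0.0765% lower) and 0 of 64 for translational efficiency, the footprint-to-input ratio in KO minus that in WT (0.188% of 16527 genes, 0.0908% higher and 0.0968% lower). At an unadjusted p below 0.05 there were 7 in footprints and 9 for efficiency, and the share of all genes at that threshold was not computed. The lowest p in footprints was that of Eif2ak3, with 131, 157 and 117 in KO footprints against 314, 246 and 221 in WT footprints. All KO libraries lay below all WT libraries, at a log2 of -0.94 ± 0.21 (adjusted p = 0.310), and its efficiency difference was -0.44 ± 0.29 (adjusted p = 0.634).

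WT footprint replicate 2 stood apart from its group. Its log2 signals differed from those of the other WT footprints by a root mean square of 1.18 and 1.24, while those differed from each other by 0.985. KO footprints differed from one another by 0.970 to 0.981. Other libraries stood apart as well: brain KO input replicate 2 by 0.906 and 0.947, against 0.695 between the other KO inputs. Testes KO IP replicate 2 did so by 0.959 and 0.992, against 0.749. Without WT footprint replicate 2, limma called 8 of 63 factor genes in footprints, 6 higher and 2 lower (12.7%, against 6.77% of 14120 genes, 3.31% higher and 3.46% lower). For efficiency it called 10 of 64, 6 higher and 4 lower (15.6%, against 5.32% of 16424 genes, 2.66% higher and 2.66% lower). The library was singled out after its effect was seen, and every other leave-one-out fit called 0 in both comparisons.

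Both eEF1A genes passed in footprints without it. Eef1a1 had 6811, 6572 and 7352 in KO footprints against 3018, 6437 and 4192 in WT footprints, where 6437 was replicate 2. Without that library its footprint fold was 0.96 ± 0.15 (adjusted p = 0.0244), against 0.67 ± 0.26 with it (adjusted p = 0.440). Eef1a2 moved the other way, with 7241, 7115 and 6174 in KO footprints against 12617, 6869.7 and 10815 in WT footprints, and a fold of -0.77 ± 0.11 without the library (adjusted p = 0.0212), against -0.52 ± 0.22 with it.

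Among the cap factors, Eif4b had 1539, 1246 and 1339 in KO footprints against 588, 1439 and 700.5 in WT footprints. Eif4h, another helicase cofactor, had 2224, 2103 and 2499 in KO against 1215, 2429 and 1341 in WT, and Eif4e 483, 455 and 564 in KO against 287, 582 and 271 in WT. In each gene WT replicates 1 and 3 lay below all KO libraries and replicate 2 lay within or above them. Without replicate 2 the folds were 1.09 for Eif4b, 0.83 for Eif4h and 0.84 for Eif4e, with adjusted p of 0.0181, 0.0207 and 0.0326.

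In eIF3, Eif3b had 540.1, 611 and 516 in KO footprints against 307, 534 and 293 in WT footprints, and Eif3l 366, 363 and 312 in KO against 702, 272 and 754 in WT. In WT replicate 2, Eif3b (534) lay among the KO libraries and Eif3l (272) below all of them. Without that library the folds had opposite signs, 0.88 for Eif3b (adjusted p = 0.0240) and -1.07 for Eif3l (adjusted p = 0.0179). Eif2b5, the catalytic subunit of eIF2B, was the eighth, at 0.72 (adjusted p = 0.0463). For efficiency the calls without replicate 2 were Eef1a1, Eif3b, Eif4a1, Eif4b, Eif4e and Eif4h higher, and Eef1a2, Eif1ax, Eif3l and Eif4g2 lower. Of these, Eif4a1, Eif4g2 and Eif1ax did not pass in footprints alone. Their footprint folds without replicate 2 were 0.08, -0.25 and -0.85 (limma adjusted p = 0.683, 0.185 and 0.0551). Input enters the efficiency, and the input of Eif4a1 lay lower in KO and that of Eif4g2 higher, neither past the test. No gene called in footprints or efficiency without replicate 2 passed with it in the fits.

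**Figure D4:**
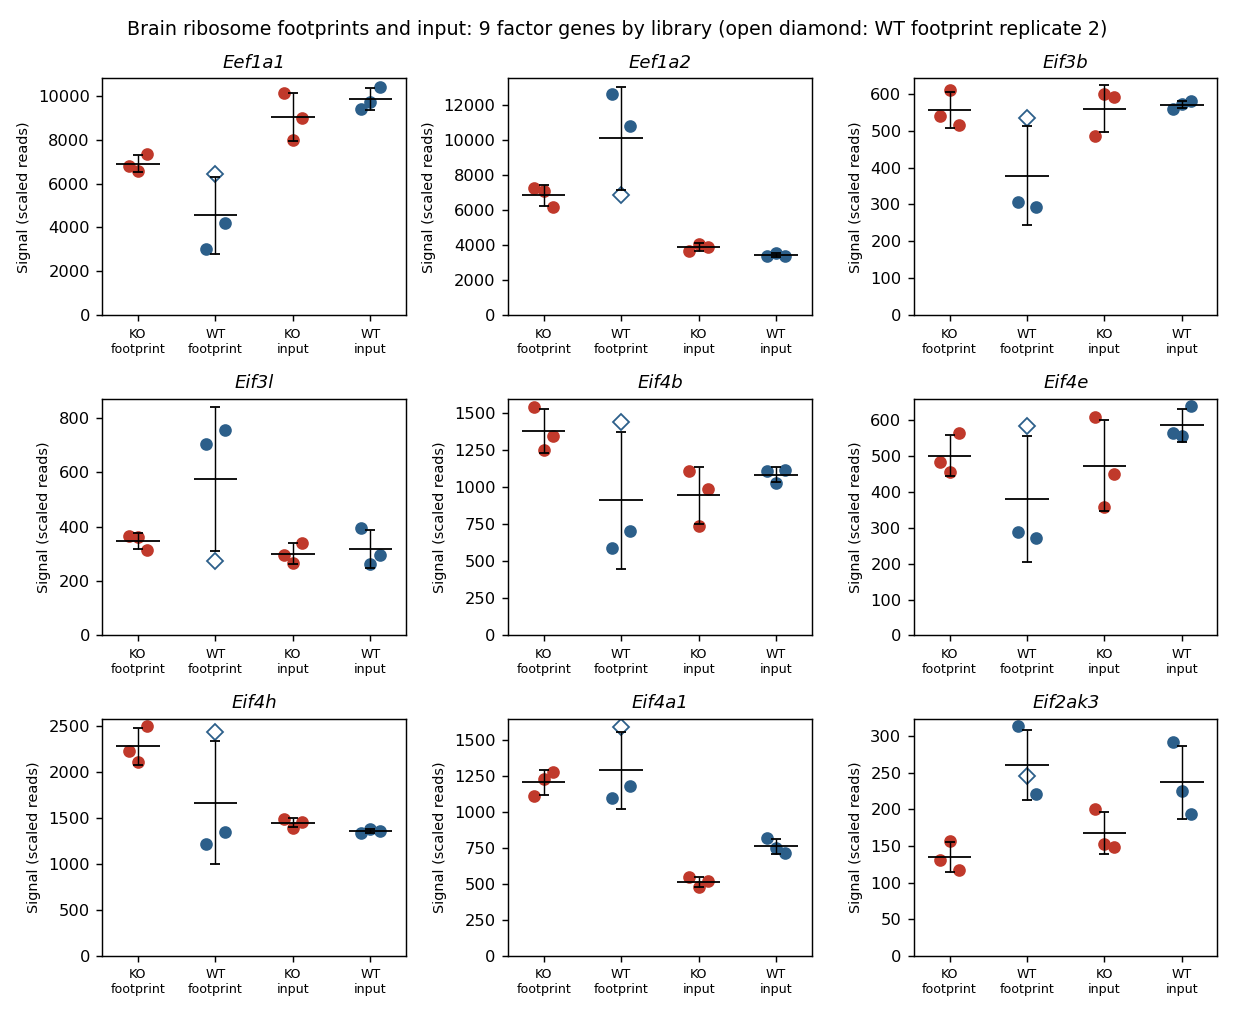
Signal of 9 factor genes by library in KO footprints, WT footprints, KO input and WT input of brain, with means and SD over 3 libraries. The open diamond is WT footprint replicate 2, which for Eif4b (1439) lies among the KO footprints and for Eef1a1 (6437) just below them, while the other WT footprints of both genes lie further down.

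Within each genotype, footprints and inputs of factor mRNAs differed widely. In KO brain 23 of 64 factor genes had more footprint than input signal and 15 less, 59.4% against 52.4% of all genes (24% higher, 28.4% lower). In WT brain 21 had more and 16 less, 57.8% against 54.3% of all genes (25.2% higher, 29.1% lower). Footprint and input libraries differ in makeup, and the split depended on the scaling: by library total it was 4 higher and 33 lower in KO and 2 and 40 in WT, with the median of all genes at -0.93 in KO and -1.18 in WT, and by upper quartile 14 and 20 in KO and 12 and 22 in WT. Directions below are relative to the deposited scaling, whose all-gene medians were -0.09 in both genotypes.

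On that scale eIF3 genes lay high: 8 of 14 had more footprint than input signal in KO and 7 in WT. Eif3k had 815, 744 and 609 in KO footprints against 284, 201 and 279.7 in KO inputs, and 1072, 776 and 1019 in WT footprints against 299.9, 309.6 and 287 in WT inputs. The log2 ratio was 1.51 ± 0.17 in KO and 1.66 ± 0.17 in WT, with no overlap in either genotype. Eif3g reached 1.31 in KO and 1.30 in WT, Eif3a 1.05 in KO and 0.91 in WT, Eif3d 0.99 in KO and 1.00 in WT, and Eif3i 0.52 in KO and 0.91 in WT. Eif3f passed in KO (2.06), with 401, 523 and 426 in footprints against 128, 63.8 and 148 in inputs.

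The near-identical genes Eif3j1 and Eif3j2 went opposite ways in WT, at -4.93 ± 1.32 for Eif3j1 and 0.88 ± 0.17 for Eif3j2. Eif3j1 had 95.8, 21.6 and 1.27 in KO footprints and 24.8, 0.845 and 0 in WT footprints, where the 0 is a listed value. How the authors' counting divided reads between the copies is not given in the sources used here, so both values are uncertain. The start-codon factors Eif1 (0.55 in KO, 0.89 in WT) and Eif1b (0.85 in KO, 0.84 in WT), also close copies, were both higher in footprints. In eIF2 and eIF2B, Eif2s1 (1.14 in KO, 0.62 in WT), Eif2b1 (2.07 in KO, 1.57 in WT) and Eif2b3 (1.15 in KO, 1.43 in WT) were higher.

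Several factor genes had less footprint than input signal in both genotypes. Eif5a2 had 107, 113 and 77.7 in KO footprints against 413, 447 and 379 in KO inputs, and 122, 128 and 127 in WT footprints against 490.4, 529 and 453 in WT inputs. Its log2 ratio was -2.06 ± 0.15 in KO and -1.95 ± 0.15 in WT, with groups far apart, while Eif5a had -0.01 in KO and -0.12 in WT and did not pass. Eif4e3 stood at -2.06 in KO and -2.73 in WT, and the amino acid sensor kinase Eif2ak4 at -1.40 in KO and -1.49 in WT.

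Both the eIF4E transporter Eif4enif1 (-1.24 in KO, -0.95 in WT) and the inhibitor Eif4ebp2 (-0.96 in KO, -0.74 in WT) were lower, and so were Eif4g2 (-1.08 in KO, -0.71 in WT), Eif4a2 (-0.78 in KO, -0.80 in WT), Eif2b5 (-0.75 in KO, -1.14 in WT), Eif4g1 (-0.39 in KO, -0.45 in WT) and Eif2d (-0.88 in KO, -1.04 in WT). Eif4a2 contrasted with Eif4a1, which was higher at 1.23 in KO and 0.74 in WT. Eef1a2 was higher in footprints, at 0.81 in KO and 1.50 in WT, and Eef1a1 lower in WT (-1.18), with -0.38 in KO. Eef2 was lower in KO (-0.72), with -0.29 in WT, and no difference between genotypes passed, as given above. Leaving out 1 library at a time ended 11 of the 38 KO calls in at least 1 fit (Eif1, Eif1a, Eif2b2, Eif3h, Eif3j2, Eif4a3, Eif4enif1, Eif4g1, Eif4g3, Eif4h and Eif5) and 5 of the 37 WT calls (Eef2k, Eif3b, Eif4e, Eif4ebp2 and Eif4enif1).

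**Figure D5:**
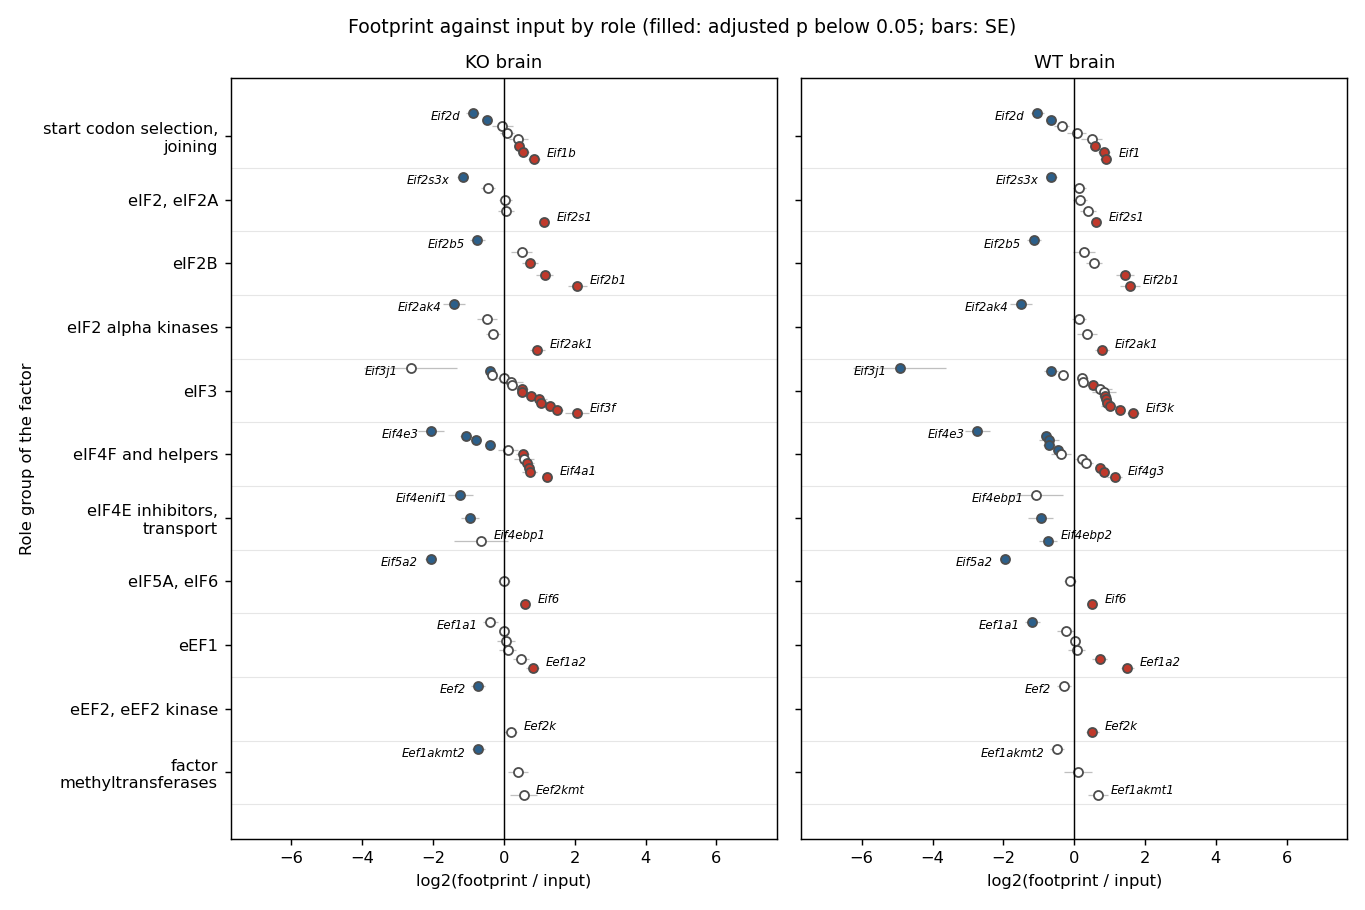
Log2 of footprint over input for each of the 64 tested factor genes, by role group, in KO brain (left) and WT brain (right), as limma estimates with SE bars, filled where the adjusted p was below 0.05. Most eIF3 genes lie right of 0 in both panels, and Eif5a2 lies near -2 in both, at -2.06 in KO and -1.95 in WT.

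Other genes of translation, a list of 47 termination, recycling, poly(A)-binding, mTOR-linked and modification genes of which 46 were found, were read the same way. For the genotype difference in testes enrichment 1 of 40 tested was higher, the release factor partner Gspt1 (0.73, adjusted p = 0.0160), and 4 were lower. These were the deoxyhypusine hydroxylase Dohh (-2.37, adjusted p = 0.00185), which finishes the hypusine of eIF5A, the ribosome splitter Abce1 (-2.002, adjusted p = 0.00644), Dph6 of diphthamide synthesis, the modification of eEF2 (-1.72, adjusted p = 0.0221), and the rescue factor Hbs1l (-0.81, adjusted p = 0.0223). Together they were 12.5% of the list's tested genes, near the 9.97% of all genes. Dohh had 7.48, 4.40 and 4.50 in KO IP libraries, all under the signal minimum of 10, and entered the test through its other libraries, where it was higher. In testes input, of 39 tested, Paip1 (0.47) and Larp1 (0.41), which binds mRNAs with 5′ pyrimidine tracts, rose and Dph3 (-0.80) fell, 7.69% against 9.33% of all genes. In brain, 0 of 44 passed between genotypes in input, footprints or efficiency.

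Factor genes at or under the signal minimum of 10 in most libraries were not tested. In testes these were Eif2d, Eif2s3x, Eif4e1b, Eif4ebp3 and Eef1akmt1, joined by Eif2ak3 in the input fit. In brain they were Eif4e1b, Eif4ebp3, Eef1akmt3 and Eef1akmt4, joined by Eif4ebp1 in both fits of 6 libraries. Eif4e1b, the oocyte cap-binding homolog, was listed at 0 in all testes inputs and in all HET IP libraries, and had 7.48, 0 and 4.50 in KO IP libraries. Eif2d had 2.39 to 8.25 in testes inputs but enough signal in brain to be tested.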

How the data were processed

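The authors deposited 1 table for testes m6Am-Exo-Seq and 1 for brain ribosome footprinting, each with a signal per gene and library (reads divided by a library factor) and with their own log2 fold and adjusted p-value per gene. The submitters' processing notes name DESeq, DESeq2 1.25.10, R 3.6.2, STAR and Salmon 0.12.0. Build, annotation, strand setting and filters were not given in the sources used here. In testes 100% of the signals were whole multiples of 1 read (tolerance 0.01), which gives reads per library. In brain 7.74 to 15.6% were, so depth there is an estimate from the commonest step and no count test was run. Of the testes rows, 704 have no gene symbol.

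Fits used limma 3.58.1 in R 4.3.3 with a mean-variance trend on log2(signal + 1), over all genes that reached a signal of 10 in 3 or more of the fitted libraries, and Benjamini-Hochberg adjustment at 0.05. The pseudocount understates the folds of low genes. Genotype comparisons of input or footprints used 6 libraries. Enrichment, footprint-to-input ratios and their genotype differences used 12. Alternatives were pseudocounts of 0.5 and 8, no filter, scaling by library total or upper quartile, no trend, a shared spread, edgeR 4.0.16 and DESeq2 1.42.0 on recovered testes reads, and leaving out each library. Scripts were tested on simulated data. Members, role groups, lists and the rule for named genes (up to 12 called genes per direction and comparison by size, 12 fixed genes and paralogs) were chosen with earlier results of these data known. Replicates were numbered in accession order, since the labels give no numbers, and were not paired. Promoters came from RefSeq (GRCm38.p6), without chromosome 18.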

Additional observations from a re-analysis of the deposited data

Results flagged for a closer look

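For 9 factor genes the antibody enrichment in testes differed between KO and HET by the interaction test, which is what singled them out. On the log2 scale, KO minus HET, the differences were -1.32 for Eif4a3, -1.001 for Eif2s2 and -0.86 for Eif4a1. They were 0.65 for Eif4g1, 0.76 for Eif6, 0.88 for Eef1d, 0.95 for Eef2, 1.10 for Eif3b and 1.68 for Eef1akmt4. Eif4a3 and Eif2s2 passed in all 20 alternatives run, with adjusted p of 0.000116 to 0.0209 and 3.12e-05 to 0.0347. The KO IP libraries lay on one side of the HET IP libraries in each of the 9. The test that picked these genes used the same IP values, so this separation is no independent result. The share of all genes with such a separation was not computed.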

How the results depend on the processing

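Of 155 alternative counts of called factor genes, 138 stayed within 1.5 times the reported count. These include brain genotype fits that stayed at 0 calls, where a ratio says nothing. The counts also ignore direction. In WT footprint against input, scaling by library total moved 21 higher and 16 lower to 2 and 40, with 18 calls shared, and still counted as within the range. In testes input the 2 calls became 5 with library totals and 0 with no trend or with a spread over all 12 libraries, and ran from 1 to 5 without 1 library. Over all genes the input calls were 1052 in the main fit, 1043 with library totals, 33 with no trend and 25 with the shared spread. For the genotype difference in testes enrichment the 9 calls became 3 with upper-quartile scaling, 5 with no trend and 14 with DESeq2, and ran from 5 (without HET input replicate 1 or 3 or KO input replicate 2 or 3) to 16 (without HET IP replicate 1). The all-gene calls moved too, from 1235 to 678 with upper-quartile scaling, 742 with no trend, 1708 with DESeq2 and 1729 without HET IP replicate 1. Without WT footprint replicate 2 the 0 calls became 8 in brain footprints and 10 for efficiency, and the leave-one-out ranges were 0 to 8 and 0 to 10. Of 3458 alternative values of single factor genes, 27 reversed, all in footprint against input scaled by library total, where the all-gene median itself moved to -0.93 in KO and -1.18 in WT. In KO these were Eif4a3 (-0.29), Eif5 (-0.40), Eif3i (-0.31), Eif3j2 (-0.31), Eif1 (-0.27), Eif6 (-0.24), Eif4h (-0.17), Eif4e2 (-0.12), Eif2b2 (-0.094), Eif4g3 (-0.093), Eif3m (-0.050) and Eef1a2 (-0.018). In WT they were Eif6 (-0.56), Eef2k (-0.55), Eif3m (-0.55), Eif5 (-0.49), Eif2s1 (-0.45), Eef1e1 (-0.34), Eif4a1 (-0.33), Eif2ak1 (-0.29), Eif4e2 (-0.23), Eif1b (-0.23), Eif3j2 (-0.19), Eif1 (-0.18), Eif3a (-0.16), Eif3i (-0.16) and Eif3d (-0.074). The causes were not tested beyond the change of scale.

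Depth limits the low genes: Eef1akmt4 and Eif2s3y rested on 3 to 22 reads in the KO IP libraries. With 3 libraries a group, a factor gene that did not pass is not shown to be equal between genotypes. Deposited values do not tell reads of pseudogenes from those of their parents, which touches Eif4a1, Eif3e and Eif5a. No paired analysis was possible because the labels carry no replicate numbers. Brain footprints and inputs came from the same lysates, yet the fits of footprint against input and of efficiency treated all libraries as independent. Their SE and p-values leave that sharing out.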

Other observations

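A pair of pseudogenes of factor genes differed between genotypes in some kinds of library and overlapped in others. Eif3s6-ps2, named for the eIF3 subunit now called Eif3e, had 10.6, 24.0 and 27.8 in KO testes inputs and 0 in all HET testes inputs, and 5.99, 4.40 and 11.7 in KO IP libraries against 1.49, 0 and 0 in HET IP libraries. In brain inputs it had 22.0, 26.1 and 17.1 in KO against 6.52, 15.9 and 12.01 in WT, while in brain footprints it had 12.9, 6.46 and 16.6 in KO against 18.4, 12.1 and 24.9 in WT. Eif5al3-ps, named for its likeness to Eif5a, had 42.5, 89.8 and 42.7 in KO brain inputs against 0, 0 and 26.3 in WT brain inputs. It had 97.2, 96.2 and 182 in KO footprints against 0, 0 and 21.0 in WT footprints. In testes it overlapped between genotypes, with 8.86, 7.50 and 10.6 in KO inputs against 5.53, 8.31 and 4.78 in HET inputs, and 2.99, 28.6 and 12.6 in KO IP libraries against 10.4, 5.22 and 2.68 in HET IP libraries. Both were picked after their values were seen, and no test was made of them.

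In the genotype difference of testes enrichment, 11 of 14 eIF3 genes lay below 0, with a median of -0.46 over the 14 against -0.01 over all genes, and 4 of 5 eIF2B genes lay above 0. Of these 19 genes Eif3b passed the test, with a positive difference. This grouping was noticed in the data, and no test of it was made.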
